A study of Mus musculus with 6 samples.

Results

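The general transcription factor TFIID was followed through the transcripts of 10 of its subunits, Taf4, Taf12, Taf5, Taf6, Taf9, Taf9b, Taf13, Taf7, Taf1 and Tbp, in RNA-seq libraries of mouse muscle stem cells (MuSCs). They were chosen by name, as the core of the complex with the partners of Taf4, and as TBP with Taf13, Taf1 and Taf7. Earlier results of these data were known when they were chosen. All 10 had a row in the table of 22081 genes, and all 10 passed the filter on low values, as did 18562 genes in all. The 6 libraries came from freshly isolated MuSCs of adult mice on a C57BL/6 background, 3 with the genotype label control (WT in their titles) and 3 with the label Taf4asKO. The study sorted MuSCs by flow cytometry, after removal of SCA1, CD45 and CD31 positive cells, either by Integrin alpha 7 or by a Pax7-zsGreen reporter, and which of the 2 was used for these libraries is not given in the sources used here. In Taf4asKO mice, both Taf4a alleles (Taf4a is an older name of Taf4) carried loxP sites and were cut by a tamoxifen-inducible Cre recombinase expressed from Pax7, a gene of MuSCs. Control mice were littermates that carried the loxP-flanked alleles as well, with or without the Cre allele according to the study, so by that account the floxed alleles are common to both groups, although the titles of the control libraries read WT. The Cre is made only in cells that express Pax7, so any other cell in the sort keeps its floxed alleles uncut.

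TFIID is the complex that recognises core promoters and loads the TATA-binding protein, TBP, onto DNA ahead of RNA polymerase II. TBP is joined by a set of TBP-associated factors (TAFs), many of which meet as pairs through a histone fold. TAF4 pairs with TAF12, TAF6 with TAF9 or its paralog TAF9B, TAF11 with TAF13, and TAF10 with TAF3 or TAF8. The scaffold TAF5, with TAF4, TAF6, TAF9 and TAF12, forms a core found in lobes A and B, whereas TBP, TAF11 and TAF13 sit in lobe A and TAF1, TAF7 and TAF2 in lobe C. TAF4B is a paralog that can take the place of TAF4.

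The loxP sites flank exons 11 to 12 of Taf4. The numbering here is that of GENCODE M21, and whether the floxed exons were numbered in the same way is not given in the sources used here, so the values that follow hold only if they were. Exons 11 and 12 then hold 131 and 126 bases, together 257 of the 4416 bases of the transcript or 5.82%. Both are coding, and their sum leaves a remainder of 2 when divided by 3, so a transcript that joined exon 10 to exon 13 would change reading frame. They are shown because the count of the targeted gene depends on how little of it is removed, and because they mark the stretch in which a deletion would be visible in reads. The build is mm10 (GRCm38), and the bases are those of the transcript, 5′ to 3′, in lower case with nothing marked.
Taf4 exon 11, chr2:179923979-179924109, minus strand: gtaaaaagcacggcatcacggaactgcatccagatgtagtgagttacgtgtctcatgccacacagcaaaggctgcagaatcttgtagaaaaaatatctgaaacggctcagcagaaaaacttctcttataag
Taf4 exon 12, chr2:179922954-179923079, minus strand: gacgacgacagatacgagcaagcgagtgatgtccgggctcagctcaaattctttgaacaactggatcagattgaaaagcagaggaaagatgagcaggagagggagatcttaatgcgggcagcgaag

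Promoters were taken from RefSeq (GRCm38.p6) as the 250 bases before each annotated start, and 13 of the 16 TFIID genes had a usable entry. Those of Taf4 and of the 3 members that were called in at least 21 of 22 analyses (the fit described here and its alternatives; Taf5, Taf9b and Taf13) are shown, since the latter moved together. Capitals mark the letters of a CCAAT box (CCAAT), a GC box (GGGCGG) or a TATA box (TATAAA) on either strand. None of these 3 motifs contains another.
Taf4, chr2:179976647-179976896, minus strand: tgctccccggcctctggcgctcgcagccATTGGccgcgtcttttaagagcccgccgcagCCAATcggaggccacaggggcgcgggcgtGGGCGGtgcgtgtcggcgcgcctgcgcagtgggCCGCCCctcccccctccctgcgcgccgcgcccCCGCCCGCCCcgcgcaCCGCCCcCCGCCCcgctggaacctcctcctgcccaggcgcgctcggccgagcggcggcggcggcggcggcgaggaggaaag
Taf5, chr19:47067498-47067747, plus strand: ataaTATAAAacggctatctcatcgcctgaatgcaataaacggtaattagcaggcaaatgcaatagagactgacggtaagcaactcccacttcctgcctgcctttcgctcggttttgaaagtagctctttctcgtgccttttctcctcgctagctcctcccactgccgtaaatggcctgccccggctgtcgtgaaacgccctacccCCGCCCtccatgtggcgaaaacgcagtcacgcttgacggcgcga
Taf9b, chrX:106221159-106221408, minus strand: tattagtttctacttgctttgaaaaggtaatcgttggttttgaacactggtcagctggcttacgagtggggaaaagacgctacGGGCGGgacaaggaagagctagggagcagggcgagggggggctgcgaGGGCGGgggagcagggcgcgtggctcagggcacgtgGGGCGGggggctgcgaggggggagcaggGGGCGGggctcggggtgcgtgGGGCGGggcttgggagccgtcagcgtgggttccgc
Taf13, chr3:108571449-108571698, plus strand: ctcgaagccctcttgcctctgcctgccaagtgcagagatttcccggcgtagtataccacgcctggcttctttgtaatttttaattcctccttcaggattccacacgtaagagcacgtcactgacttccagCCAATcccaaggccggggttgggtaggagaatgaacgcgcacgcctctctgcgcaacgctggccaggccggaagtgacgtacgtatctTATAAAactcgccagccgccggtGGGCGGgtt
The Taf4 window was the richest in G and C, at 80.4%, with 6 GC boxes and 2 CCAAT boxes. The Taf9b window held 5 GC boxes, all on the strand of the gene, and neither of the other 2 motifs. Taf13 had 1 match to each of the 3 motifs, and Taf5 had 1 GC box and 1 TATA match. The TATA match of Taf5 lay at the end of its window far from the annotated start, and that of Taf13 near the start. Over the 13 windows, the GC box was present in 11, the CCAAT box in 3 (Taf4, Taf13 and Taf1) and the TATA box in 2. Among 32851 mouse promoters of the same length the shares were 32.74%, 33.85% and 12.37%. A match describes the letters and is not evidence of binding. The members called in nearly every analysis therefore had no motif of these 3 in common except the GC box, which most TFIID genes held.

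Library totals were between 12338676 and 14551732 normalized counts (reads divided by a size factor per library). The sorted-cell identity was checked with marker lists: all 8 MuSC markers, Pax7 among them, were present in every library. Their summed levels were 34186 to 35718 in control and 35476 to 38511 in Taf4asKO. Past the threshold 3 of the 8 were lower (Myf5, Itga7 and Cdh15) and 2 higher (Vcam1 and Sdc4). The median log2 fold change of the 8 was -0.30, while Sdc4 alone rose from a mean of 5655 to 10502. Without Taf4asKO replicate 1, 2 or 3 in turn, 1 was lower and 2 higher. Other cell types also left RNA. Schwann cell markers summed to 1178 to 2890 in control and 3480 to 4266 in Taf4asKO (4 of 5 higher), pericyte and smooth muscle markers to 8328 to 12906 and 12627 to 14548 (2 of 5 higher), endothelial markers to 878 to 1263 and 1389 to 1680 (none of 5 past the threshold) and fibro-adipogenic markers to 55578 to 81780 and 33840 to 56144 (2 of 7 lower, Col3a1 and Dpt). Col3a1 alone had 46225 to 47700 in control and 13082 to 17573 in Taf4asKO, and 5 of the 7 genes had positive log2 fold changes, with a median of 0.77. Without control replicate 1 the median of the 7 was 0.25. Without control replicate 3 it was 1.12, with 1 marker called higher. Of the pericyte and smooth muscle markers, Acta2 and Tagln had negative log2 fold changes of -0.31 and -0.75, neither past the threshold. The number of Schwann markers called was 0 when any Taf4asKO library was left out, 1 without control replicate 3 and 2 without control replicate 1, and that of pericyte and smooth muscle markers was 0 without Taf4asKO replicate 2 or 3. Blocked by replicate number, fibro-adipogenic markers had 4 higher and 2 lower, endothelial markers 2 higher of 5 (Cdh5 and Kdr, adjusted p 0.0178 and 0.0127) and pericyte and smooth muscle markers 3 higher. Myofibre markers summed to 1193 to 3772 and 2141 to 2712 (none of 6 past the threshold). Without control replicate 2, 2 of the 6 were higher, with a median log2 fold change of 0.73. Of the endothelial markers, 1 was higher without control replicate 2 and 1 without control replicate 3. Of 6 leukocyte markers Cd68 alone had a row, with 114 to 294 and 174 to 185. No listed marker with a row was at 0 in any library, and Ly6a, which codes for SCA1, had between 2 and 14 normalized counts. Control replicate 1 had the lowest sums of Schwann, pericyte, endothelial and myofibre markers among the 6 libraries. The part of these cells in the TFIID values was not tested, and in RNA of a cell population fewer cells of a type and less RNA per cell cannot be told apart.

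Transcripts of 5 of the 10 members rose in the libraries labelled Taf4asKO and none fell, where the threshold was a limma adjusted p under 0.05 together with a 1.3-fold change or more. The risers were Taf12, the histone-fold partner of Taf4, the core subunits Taf5, Taf6 and Taf9b, and Taf13 near TBP. Of all 18562 genes 12.6% passed, 5.93% higher and 6.71% lower. No test of the list as such was made. The count was 3 (Taf5, Taf9b and Taf13) without control replicate 1, without control replicate 3, and without Taf4asKO replicate 2 or 3; it was 4 without Taf4asKO replicate 1, with Taf7 lower beside those 3, and 6 without control replicate 2, of which the sixth was Taf9, whose low control level is given with its values. The median log2 fold change of the members was 0.62, against 0.004 for all genes tested. With a mean of at least 20, a filter that leaves out Taf9, the medians were 0.58 and 0.02. The groups did not overlap for 7 of the 10 members, where they did not overlap for 33% of all genes. Of these 7, Taf12, Taf5, Taf6, Taf9b, Taf13 and Taf1 were higher in Taf4asKO, the direction of 16.6% of all genes, and Taf7 was lower, the direction of 16.4%.

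**Figure D1:**
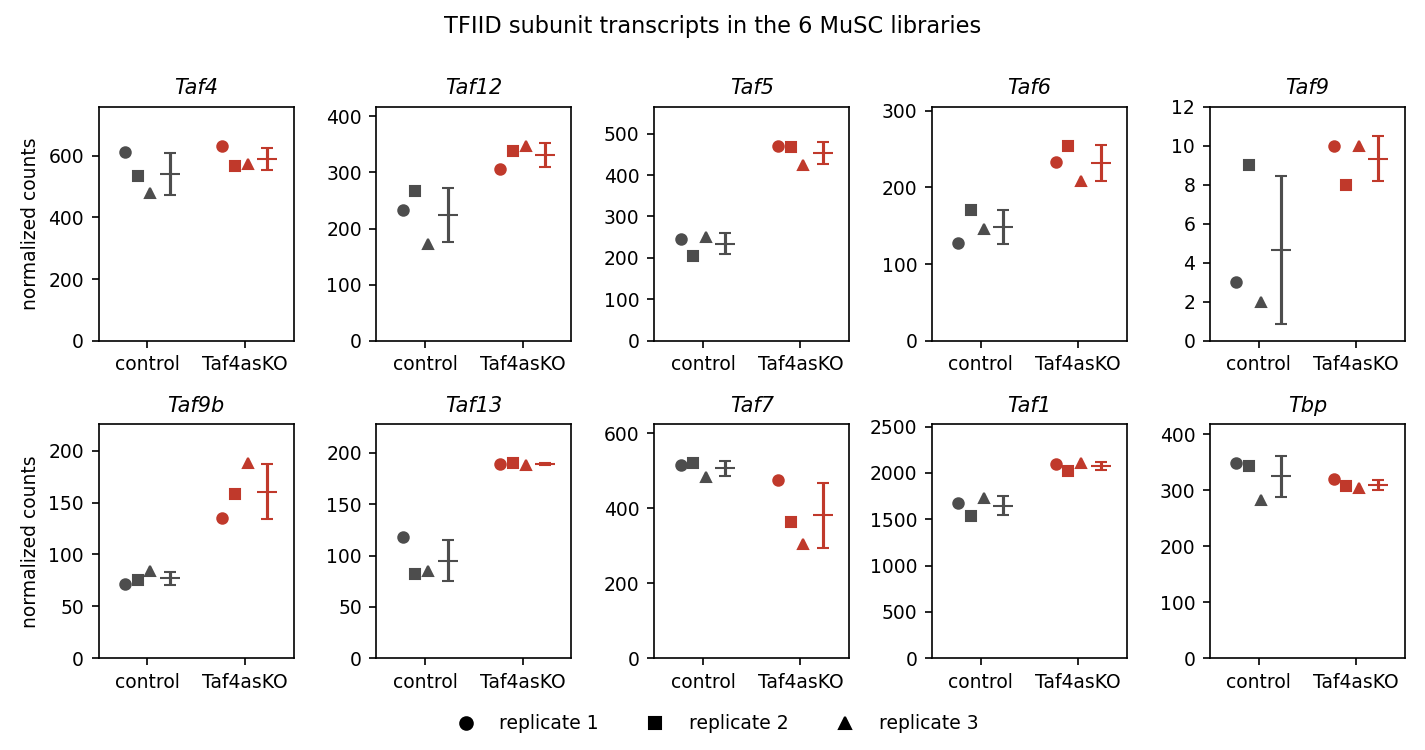
Normalized counts (vertical axes, each from 0) of the 10 members in the 3 control (grey) and 3 Taf4asKO (red) libraries, with the mean and its SD beside the points (n = 3) and marker shape giving the replicate number. Taf5, Taf9b and Taf13 show a wide gap between the groups, Taf12 and Taf6 a narrower one, and Taf4 and Tbp overlap.

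The targeted gene itself did not separate the groups. Taf4 (ENSMUSG00000039117, chromosome 2, 179912152 to 179976646, minus strand) showed normalized counts of 613, 534 and 478 in the controls, in the order of their replicate numbers, and of 631, 565 and 574 in the Taf4asKO libraries. The log2 fold change was 0.13 (95% interval -0.14 to 0.40, limma adjusted p 0.524). Loss of exons 11 and 12 alone, numbered as above, with every other read kept, would move the gene total by -0.09 on the log2 scale, which is inside that interval. The gene total therefore does not check the labels. The study measured the deletion by other means, which are not analysed here, and each direction here is that of the groups as labelled. Opposite to Taf4, 4921531C22Rik overlaps 1.34% of its exon bases.

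Taf12 codes for the partner that closes the histone fold of TAF4 in TFIID, and is shared with the coactivator SAGA. The gene (chromosome 4, 132274375 to 132295766) showed normalized counts of 233, 266 and 172 in the controls and of 306, 338 and 347 in the Taf4asKO libraries. All 3 Taf4asKO libraries were above all 3 controls. Its log2 fold change was 0.58 (95% interval 0.21 to 0.95, limma adjusted p 0.0465), a rise of 1.496-fold. This call was close to the limit: it was lost in each fit that left out control replicate 1 (adjusted p 0.0707), control replicate 3 (0.0987), or Taf4asKO replicate 1 (0.0911), 2 (0.159) or 3 (0.165), and was kept without control replicate 2 (0.0167). The ratio of Taf12 to Taf4 within a library, which hardly depends on scaling, was -1.29 ± 0.25 in control and -0.84 ± 0.18 in Taf4asKO on the log2 scale (SD, n = 3). The difference was 0.45 with an exact two-sided permutation p of 0.2 (adjusted over 7 ratios, 0.35), and control replicate 2, at -1.003, lay above Taf4asKO replicate 1, at -1.04. Taken by replicate number, control and Taf4asKO were at -1.39 and -1.04, at -1.003 and -0.74, and at -1.47 and -0.72. The ratio was higher in Taf4asKO in each pair, where the smallest p possible is 0.25.

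Taf5, the WD40-repeat scaffold on which the core is built, rose with the smallest adjusted p of the 10 members. It (chromosome 19, 47067748 to 47083479) showed normalized counts of 246, 205 and 251 in the controls and of 470, 467 and 423 in the Taf4asKO libraries. The lowest Taf4asKO library was well above the highest control. Group means of 234 ± 25.2 and 453.3 ± 26.3 (SD, n = 3) corresponded to a log2 fold change of 0.96 (95% interval 0.67 to 1.24, limma adjusted p 0.00154). Taf5 passed in 21 of 22 analyses and in all 6 fits that left out a library, with log2 fold changes of 0.86 to 1.01; the exception was a fold limit of 2.

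Taf6 and Taf9 code for the second histone-fold pair of the core, and Taf9b for an alternative to TAF9. Taf6 (chromosome 5, 138178617 to 138187451) showed normalized counts of 127, 171 and 146 in the controls and of 233, 254 and 208 in the Taf4asKO libraries, with no overlap. Its log2 fold change was 0.65 (95% interval 0.30 to 1.002, limma adjusted p 0.0254). As for Taf12, leaving out control replicate 1 (adjusted p 0.0706), control replicate 3 (0.0526), or Taf4asKO replicate 1 (0.0825), 2 (0.128) or 3 (0.0641) removed the call. Exons of Ap4m1 on the opposite strand cover 26.5% of the exon bases of Taf6, and whether reads were counted by strand is not given in the sources used here. Ap4m1, named for this overlap, fell from 224, 193 and 188 to 132, 137 and 145, a log2 fold change of -0.54 (limma adjusted p 0.0349), opposite in direction to Taf6.

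Taf9 was the lowest of the members. The gene (chromosome 13, 100651607 to 100656060) showed normalized counts of 3, 9 and 2 in the controls and of 10, 8 and 10 in the Taf4asKO libraries. Control replicate 2 lay between Taf4asKO libraries, and the interval of the log2 fold change of 1.06 ran from -0.11 to 2.24 (limma adjusted p 0.217). Without control replicate 2, the value was 1.57 (adjusted p 0.0481), and without control replicate 3 it was 0.70 (adjusted p 0.458). Its control mean of 4.67 lay under the filter of 5, so Taf9 entered the test only through the Taf4asKO libraries, and its call without control replicate 2 supports nothing. Of its exon bases 73.8% are also exons of Ak6 on the same strand, where reads over more than 1 gene were left out by the authors, so these values describe the remaining stretch. Ak6 itself showed normalized counts of 37, 50 and 29 in the controls and of 31, 32 and 31 in the Taf4asKO libraries (log2 fold change -0.26, adjusted p 0.577).

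Taf9b (chromosome X, 106206883 to 106221158) showed normalized counts of 72, 75 and 84 in the controls and of 135, 158 and 188 in the Taf4asKO libraries. The gap between the groups exceeded the range of the controls. The means of 77 ± 6.25 and 160.3 ± 26.6 (SD, n = 3) gave a log2 fold change of 1.04 (95% interval 0.64 to 1.44, limma adjusted p 0.00548), and the call held in all 22 analyses. The ratio of Taf9b to Taf9, with Taf9 at 10 normalized counts or fewer, was 3.98 ± 0.97 in control and 3.96 ± 0.29 in Taf4asKO on the log2 scale (SD, n = 3, exact permutation p 0.9), and that of Taf9 to Taf6 differed by 0.41 (exact permutation p 0.5). The ratio of Taf9 to Taf6 was -4.91 ± 0.76 in control and -4.49 ± 0.30 in Taf4asKO. Its control replicate 2, at -4.10, lay above every Taf4asKO library. Taf9b is X-linked, as is Taf1. Xist, the RNA of the inactive X chromosome of female cells, showed normalized counts of 7, 5 and 8 in the controls and of 22, 27 and 38 in the Taf4asKO libraries, and the Y-linked genes Kdm5d, Ddx3y, Uty and Eif2s3y were present in all 6 libraries. Kdm5d had 495 to 563 and 632 to 676, and of the 4 Eif2s3y passed the threshold, higher at a log2 fold change of 0.62 (limma adjusted p 0.00422). These genes were looked at after the values were seen, and the part of a mix of sexes in the Taf9b and Taf1 values was not tested.

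TBP and the subunits next to it did not move together. Tbp (chromosome 17, 15499888 to 15528379) showed normalized counts of 348, 343 and 282 in the controls and of 320, 307 and 303 in the Taf4asKO libraries. The groups overlapped, and the log2 fold change was -0.06 (95% interval -0.34 to 0.22, limma adjusted p 0.802). Pdcd2 on the opposite strand covers 19.0% of its exon bases and had no row among the genes tested. Taf13 (chromosome 3, 108571699 to 108583222), whose product pairs with TAF11 beside TBP, showed normalized counts of 118, 82 and 85 in the controls and of 189, 190 and 188 in the Taf4asKO libraries. The Taf4asKO libraries were nearly equal and far above every control. Its log2 fold change was 1.0045 (95% interval 0.61 to 1.40, limma adjusted p 0.00584), past the threshold in all 22 analyses. Of 75-base windows of its longest coding transcript, 7.26% also occur in Gm11189. Taf11, its partner, showed normalized counts of 150, 196 and 157 in the controls and of 154, 195 and 172 in the Taf4asKO libraries (log2 fold change 0.05, adjusted p 0.867). The ratio of Taf13 to Taf11 was -0.82 ± 0.45 in control and 0.13 ± 0.17 in Taf4asKO (log2, SD, n = 3), without overlap, a difference of 0.95 (exact permutation p 0.1, the smallest that 3 against 3 allows, adjusted over 7 ratios to 0.233).

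Taf1, the largest subunit, binds TBP and promoter DNA, and TAF7 binds TAF1. Taf1 (chromosome X, 101532734 to 101601789) showed normalized counts of 1674, 1537 and 1731 in the controls and of 2092, 2021 and 2104 in the Taf4asKO libraries. The groups did not overlap. The log2 fold change of 0.33 (95% interval 0.13 to 0.53) had an adjusted p of 0.038 but was a 1.26-fold difference, under the limit of 1.3. With GC content and exon length adjusted, the log2 fold change was 0.19 (limma adjusted p 0.251). The limma adjusted p was 0.0829 with upper-quartile scaling, 0.0945 with total scaling and 0.0991 with voom weights. Taf7 (chromosome 18, 37640491 to 37644204) went the other way, at normalized counts of 515, 520 and 484 in the controls and of 475, 364 and 304 in the Taf4asKO libraries. Taf4asKO replicate 1 was just below the lowest control and the other two were further away. Its log2 fold change was -0.43 (95% interval -0.78 to -0.08, limma adjusted p 0.0995), not past the threshold. Blocked by replicate number, the adjusted p was 0.0362 and Taf7 passed as lower, in a fit in which 18.1% of all genes passed, and without Taf4asKO replicate 1 it was 0.0352 at a log2 fold change of -0.60. Without Taf4asKO replicate 3 the log2 fold change was -0.28 (adjusted p 0.3315). The ratio of Taf7 to Taf1 was -1.70 ± 0.14 in control and -2.46 ± 0.33 in Taf4asKO (log2, SD, n = 3), and that of Tbp to Taf1 was -2.35 ± 0.24 and -2.74 ± 0.05. Neither ratio overlapped between the groups (differences of -0.77 and -0.39, exact permutation p 0.1 for each, adjusted over 7 ratios to 0.233).

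**Figure D2:**
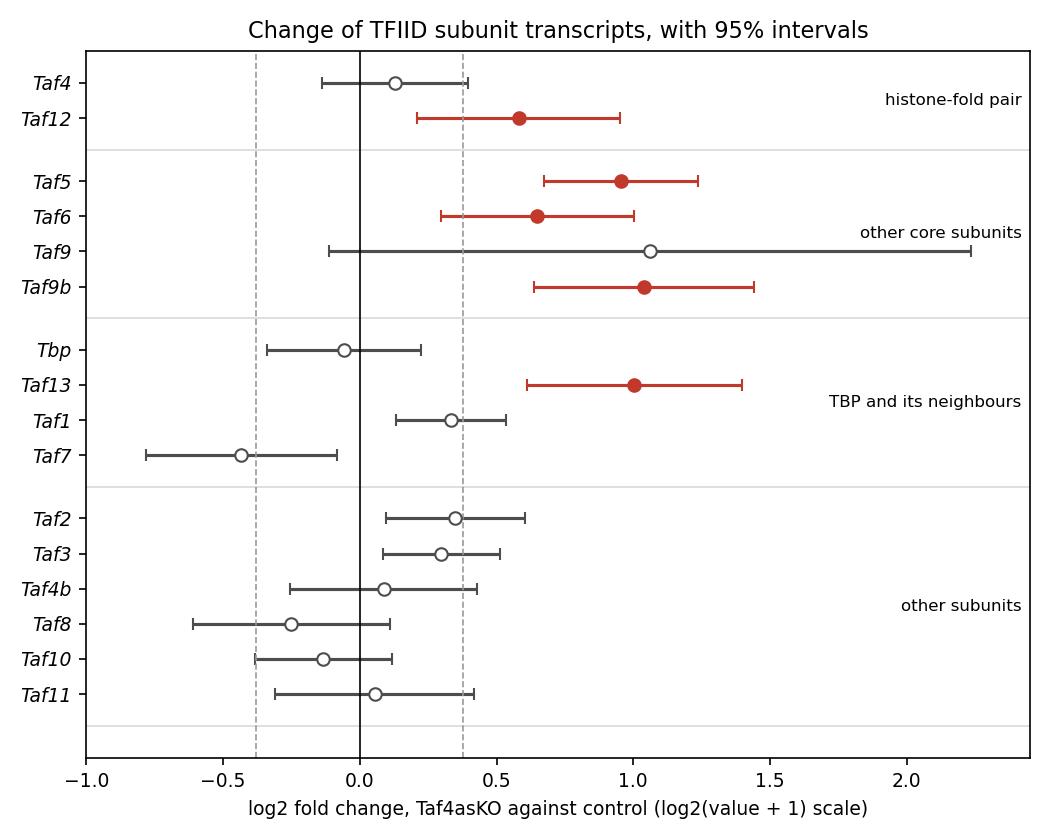
Log2 fold change of the 16 TFIID genes, Taf4asKO against control, with 95% intervals from limma (n = 3 per group), grouped by place in the complex. Filled red points passed the threshold and open grey points did not; dashed lines mark a 1.3-fold change. Taf12, Taf5, Taf6, Taf9b and Taf13 are filled, all to the right of 0, while Taf4 and Tbp lie near 0 and Taf7 to the left.

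**Figure D3:**
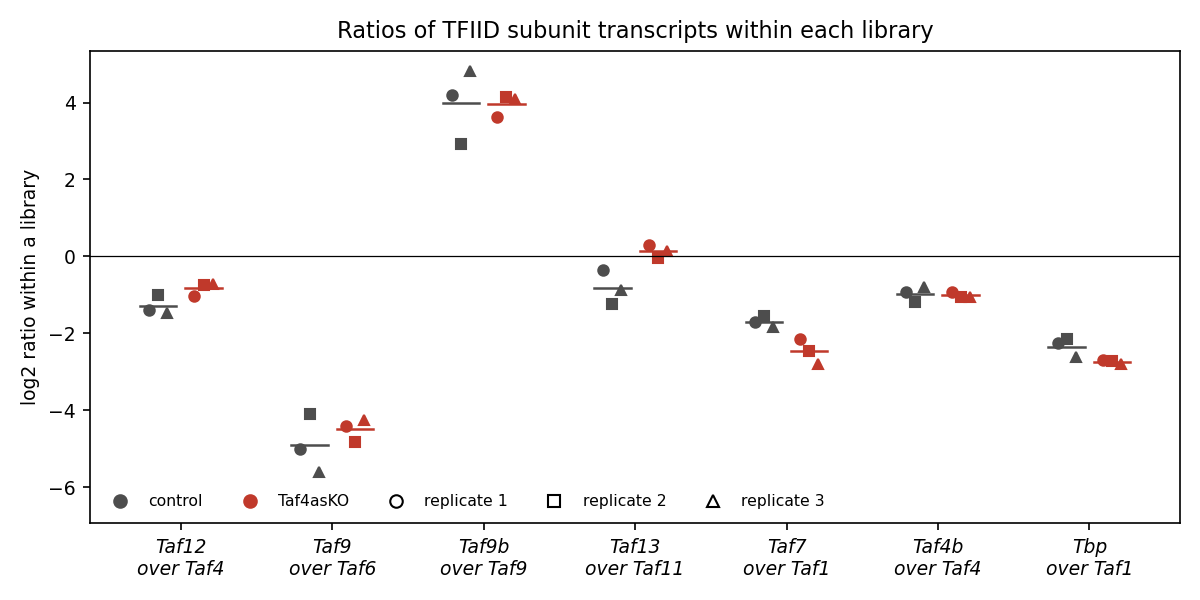
Log2 ratio of the normalized counts of 2 subunits within each library (vertical axis) for 7 pairs, control in grey and Taf4asKO in red, with lines at the group means. Taf13 over Taf11, Taf7 over Taf1 and Tbp over Taf1 do not overlap between the groups, and Taf9b over Taf9 spreads most over the controls.

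The 6 other subunits of the complex were examined as its remainder. By limma 0 of 6 passed, 2 (Taf2 and Taf3) had an unadjusted p under 0.05, and with voom weights 0 passed. Over all genes, 28.8% had an unadjusted p under 0.05. Taf2, which contacts promoter DNA in lobe C, showed normalized counts of 621, 633 and 521 in the controls and of 732, 719 and 806 in the Taf4asKO libraries (log2 fold change 0.35, adjusted p 0.0715), and passed without control replicate 2 (0.40, adjusted p 0.0395). Taf3, which reads trimethylated lysine on histone H3 through a PHD finger, had 582, 565 and 566 against 675, 711 and 722 (0.30, adjusted p 0.07). These 2 were free of overlap and higher in Taf4asKO, as were 16.6% of all genes. Taf8, a histone-fold partner of TAF10, had 302, 400 and 358 against 240, 332 and 322 (-0.25, adjusted p 0.341). Its log2 fold change ran from -0.36 to -0.10 when a library was left out. Taf10 had 345, 333 and 326 against 318, 291 and 306 (-0.13, adjusted p 0.474), lower without overlap, as were 16.4% of all genes, and Ilk on the opposite strand covers 45.9% of its exon bases. The paralog Taf4b showed normalized counts of 323, 232 and 274 in the controls and of 329, 269 and 278 in the Taf4asKO libraries (0.09, 95% interval -0.25 to 0.43, adjusted p 0.757). Its ratio to Taf4 was -0.97 ± 0.20 and -1.02 ± 0.07 on the log2 scale (exact permutation p 0.8), within the spread between replicates. The median log2 fold change of the 6 was 0.07.

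Levels of different subunits were compared as normalized counts per kb of annotated exon. In control, Taf1 was highest at 192.5 ± 11.7 per kb, followed by Taf7 at 153.3 ± 5.91 and Taf4 at 117.2 ± 14.7 (SD, n = 3), with no overlap between neighbours in this order. From Taf3 (89.4 ± 1.49) through Taf2, Taf8, Taf10, Taf5, Taf12 and Taf4b (53.7 ± 8.85), each gene overlapped the next in its range over the 3 libraries. Taf6, Taf11, Taf13, Taf9b and Tbp formed a lower stretch from 33.1 ± 4.93 to 23.9 ± 2.71 in which neighbours overlapped too. These places depend on the annotation: all annotated exons were used, and they are far longer than the longest coding transcript for Taf11 (5495 against 2207 bases) and Taf6 (4476 against 2308), which would stand higher per kb of that transcript. Tbp was divided by 13576 exon bases, and its longest coding transcript alone holds 12794. A shorter Tbp transcript would place it higher. Which transcripts are present was not tested for any gene. Taf9, with 2.20 ± 1.79 per kb, was last, but this divides by all its exons, shared ones included, and so understates its level over the part where reads were kept. In Taf4asKO, Taf5 had moved from place 8 to place 2, at 139.1 ± 8.07 per kb, and Taf7 from place 2 to place 4, at 115.4 ± 26.3. The ranges of Taf5, Taf4 and Taf7, in places 2 to 4, overlapped there. Per kb of all annotated exons (4038 bases for Taf12 and 4621 for Taf4), Taf12 was below its partner Taf4 in both groups. The values were 55.4 ± 11.8 against 117.2 ± 14.7 in control and 81.8 ± 5.34 against 127.7 ± 7.75 in Taf4asKO. This order depends on those lengths too, and a shorter Taf12 transcript would stand higher.

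**Figure D4:**
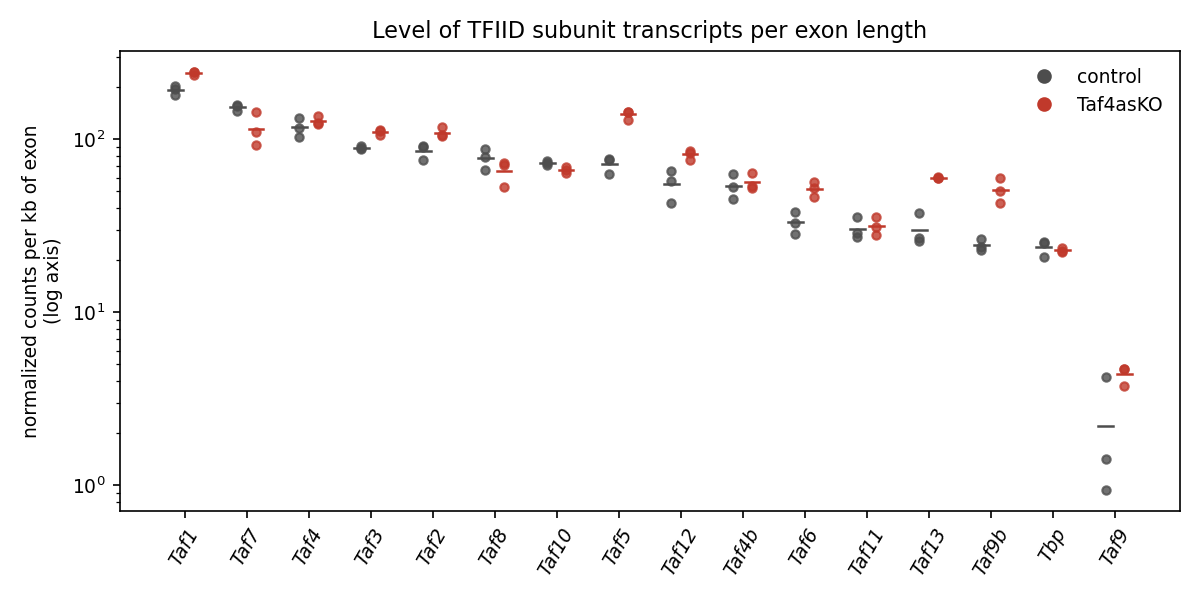
Normalized counts per kb of annotated exon (log axis) of the 16 TFIID genes, ordered by their control mean, with 1 point per library and lines at the means, control in grey and Taf4asKO in red. Taf1 leads in both groups, Taf9 is last, and Taf5, Taf12, Taf6, Taf13 and Taf9b sit higher in red than in grey.

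Genes that work with TFIID were listed as well. Of the factors that join it at the promoter, 3 of 3 rose, where 5.93% of all genes were called higher. Gtf2a1, which codes for the alpha and beta subunits of TFIIA, showed normalized counts of 651, 785 and 731 in the controls and of 1604, 1444 and 1520 in the Taf4asKO libraries (log2 fold change 1.08, limma adjusted p 0.000303), and passed in all 22 analyses. Gtf2b, for TFIIB, had 141, 214 and 131 against 322, 287 and 279 (0.90, adjusted p 0.0132; 17 of 22 analyses), and Gtf2a2, for the small subunit of TFIIA, 181, 216 and 166 against 261, 275 and 256 (0.50, adjusted p 0.0443; 14 of 22). The median of the 3 was 0.90. Without Taf4asKO replicate 1 or 2, Gtf2a1 alone of the 3 passed. Of 8 genes of the other complexes that hold TBP, Taf1d, a subunit of the RNA polymerase I factor SL1, fell from 647, 744 and 571 to 378, 372 and 321 (-0.87, adjusted p 0.00277). This 1 of 8 compares with 12.6% of all genes. The other 7 did not pass, and the median of the 8 was -0.08. Among 5 paralogs of TAFs and TBP outside TFIID none passed with limma or with voom weights, and 2 had an unadjusted p under 0.05 (28.8% of all genes). Taf6l of SAGA had the smallest p, with 204, 241 and 198 against 159, 165 and 173 (-0.37, adjusted p 0.118), and the median was -0.07. Among 7 genes of factors known to bind TAF4, none passed with limma or with voom weights and 3 had an unadjusted p under 0.05 (28.8% of all genes). Nfya, the regulatory subunit of NF-Y, showed normalized counts of 612, 574 and 592 in the controls and of 784, 773 and 701 in the Taf4asKO libraries (0.34, adjusted p 0.0495), a 1.27-fold difference that stayed under the fold limit. The median of the 7 was -0.03.

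Over the 6 libraries, the genes most like Taf4 in log2(value + 1), among 10586 with a mean of at least 50, were Rfc2, Rpgrip1l and Ttll7, each with a Pearson r of 0.99. Terf1 and Orc4 were the genes most like Taf12, also at 0.99 each. These are descriptions over 6 points that share their scaling. Rfc2, a subunit of the clamp loader of DNA replication, showed normalized counts of 196, 168 and 141 in the controls and of 215, 181 and 192 in the Taf4asKO libraries. The 6 libraries stood in the same order for Rfc2 and Taf4. Terf1, which binds telomere repeats, had 217, 224 and 199 against 237, 248 and 247.

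The alternative analyses moved the members by different amounts. Taf5 stayed between 0.86 and 1.01 on the log2 scale, Taf9b between 0.92 and 1.16 and Taf13 between 0.87 and 1.17, whereas Taf12 ranged from 0.40 to 0.72 and Taf6 from 0.54 to 0.76. Taf12 and Taf6 passed in 14 of 22 analyses each. Taf4 ranged from 0.04 to 0.22 and Tbp from -0.21 to -0.01, and neither passed in any. Taf7 was lower in all 22 and passed in 4.

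**Figure D5:**
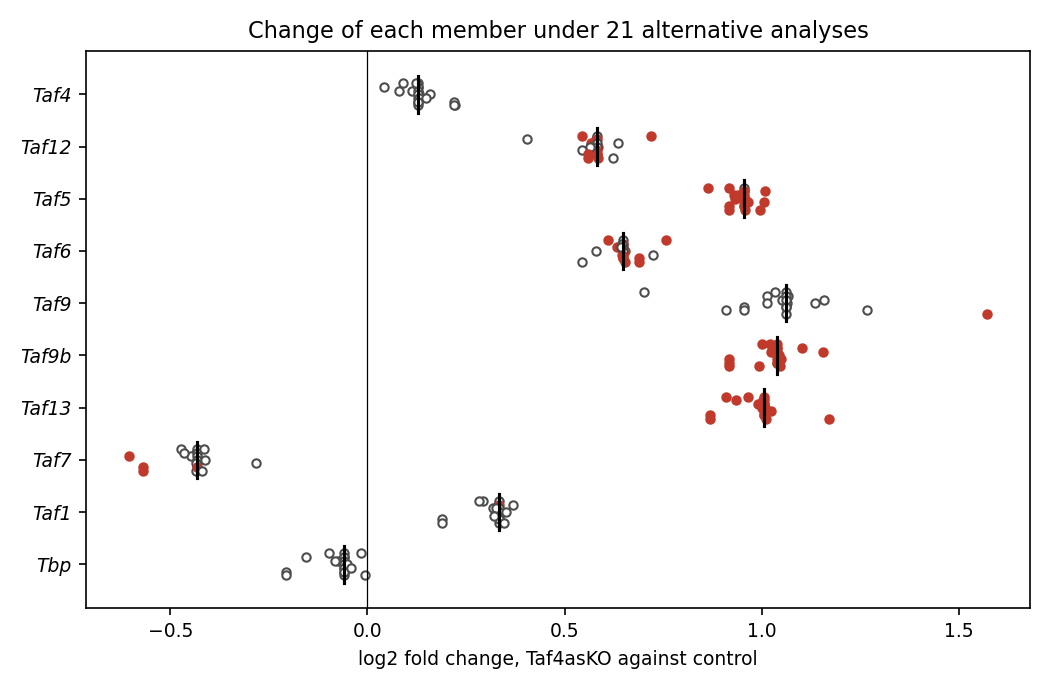
Log2 fold change (horizontal axis) of the 10 members under the alternative analyses (points; red where the threshold was passed, open grey where not), with a black line at the value reported first. Points of Taf5, Taf9b and Taf13 stay to the far right and are nearly all red, Taf12 and Taf6 mix both kinds, and Taf4 and Tbp are grey throughout.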

How the data were processed

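Total RNA of sorted MuSCs was sequenced as stranded low-input libraries (SMARTer pico kit, single-end reads of 75 bases). Per the labels' processing notes and the study's methods, the authors trimmed reads with Trimmomatic 0.39, aligned them to mm10 with STAR 2.6.0c, counted exons with featureCounts 1.6.0, leaving out reads that mapped to several places or overlapped several genes, and normalized with DESeq2 1.14.1. The deposited values are a score: read counts over a library size factor, given as whole numbers and called normalized counts here, so no count model was used and raw depth is known only through these totals. The table held 0 value columns without a sample.

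The test was limma 3.58.1 (R 4.3.3; intensity trend, two-sided, Benjamini-Hochberg adjustment over all genes, no covariate) on log2(value + 1) of genes with a mean of at least 5, a scale that understates changes of low genes. The threshold, an adjusted p under 0.05 with at least a 1.3-fold change, was as in the study's methods. Ratios within libraries were tested by exact two-sided permutation (SciPy 1.17.1). The groups come from the sample titles. The study calls its replicates biological, but the labels do not tie these libraries to separate animals; where they share animals, p-values measure only the spread between these samples, which may be technical. Replicate numbers come from the titles too, and a library and its same-numbered counterpart deviated from their groups together, with correlations of 0.235, 0.126 and 0.150, all above 0.1, so a fit with the number as a block was used beside the main one. Libraries within a group correlated at 0.9611 to 0.9843 across genes and held equal values for at most 3.52% of them, so each was used as a separate sample.

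Members and gene lists were chosen with earlier results of these data known. All genes of the TFIID lists are named; of the other lists, those past the threshold or, where none passed, the gene with the smallest p; for Taf4 and Taf12, the 3 genes with the highest Pearson r, of which 1 is not reported here. Ap4m1, Ak6, Xist and 4 Y-linked genes were added after values were seen. Pdcd2 and Ilk were looked for too and had no row among the genes tested. Exon models and overlaps are from GENCODE M21 (mm10), which held 99.8% of the table's gene identifiers, and promoters from RefSeq GRCm38.p6. Alternatives were other scalings, filters, pseudocounts, limits and weights, the block, and leaving out each library; adjustment for GC content and exon length was added after the data were seen.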

Additional observations from a re-analysis of the deposited data

How the results depend on the processing

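Of 335 values of the 16 TFIID genes under alternatives, 305 kept direction and side of the threshold. The number of members past the threshold, 5 of 10, was 2 with a fold limit of 2, 3 at an adjusted p under 0.01 and 3 without the intensity trend, and 3 to 6 when a library was left out (3 without control replicate 1, control replicate 3, Taf4asKO replicate 2 or Taf4asKO replicate 3). The other subunits gave 0 to 1 (1 without control replicate 2), and the factors that bind TAF4 gave 1 with no fold limit (Nfya) and 0 to 1 when a library was left out (Creb1, without control replicate 2). TFIIA and TFIIB genes numbered 1 with a fold limit of 2, 1 at an adjusted p under 0.01, 1 without the trend and 1 to 3 when a library was left out (1 without Taf4asKO replicate 1 or 2). Other TBP complex genes numbered 0 with a fold limit of 2. Over all genes, 2347 passed, 850 with a fold limit of 2, 876 at an adjusted p under 0.01, 941 without the trend, and 960 to 3121 when a library was left out (without Taf4asKO replicate 3 and control replicate 2). Upper-quartile scaling gave 1422 lower and 939 higher against 1246 and 1101, with the median of all genes at -0.03, and changed no call among the members. With pairing by replicate number, 6 of 10 members passed (3355 of all genes), and no call changed in the 6 TFIID-related lists except that of Taf7. Paired, the 7 ratios kept their differences, and the smallest p possible there is 0.25.

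Values near 0 changed sign. Taf4b ran from -0.0325 (without control replicate 2) to 0.2053 when a library was left out, and was -0.002 without Taf4asKO replicate 1 and -0.0162 with GC content and length adjusted, with or without the block. Taf11 ran from -0.0327 (without Taf4asKO replicate 2) to 0.1707, and was -0.0211 without control replicate 1. The median of the 5 paralogs outside TFIID, -0.07, was 0.08 without control replicate 2. That of the 7 factors that bind TAF4, -0.03, was 0.01 without control replicate 1 and 0.03 without Taf4asKO replicate 3. The difference between groups in the log2 ratio of Taf9b to Taf9 ran from -0.55 to 0.40 when a library was left out, and that of Taf4b to Taf4 from -0.1548 to 0.0445. With GC content and length adjusted, 6 of 10 members passed, Taf7 as lower (adjusted p 0.0471), with 2166 of all genes. Taf9 was not tested with a mean of at least 20. The low normalized counts of Taf9 limit what its values can show. The cause of these differences was not tested.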
